A study of Mus musculus with 12 samples.

Results

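The levels of 10 regulators and markers of the thalamus and hypothalamus were followed in mice lacking exon 7 of Auts2, a gene tied to neurodevelopmental disorders in people. The genes were listed by name, 5 for each region, and matched by symbol to Ensembl identifiers. All 10 were found among 55487 counted genes. The thalamic genes were Tcf7l2, Lef1, Lhx9, Gbx2 and Rora, and the hypothalamic genes were Six3, Nkx2-1, Sim1, Otp and Trh.

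The study sequenced the RNA of 12 male mice, 1 library each, with 3 mice in each of 4 groups. At P0, the day of birth, forebrain was taken from cmv-cre_auts2-ex7koko knockouts and from BL6 WTLM controls, described in the protocols as littermates. At P14, hippocampus was taken from nes-cre_auts2-ex7koko knockouts and from auts2-ex7-fl-het controls, which carry 1 floxed allele by their name. The Cmv-cre driver, from the transgene Tg(CMV-cre)1Cgn, acts throughout the body. The Nes-cre driver, from the transgene Tg(Nes-cre)1Kln, acts in neural progenitors and their progeny. Each was crossed to the floxed allele Auts2tm1.1Dare. The labels do not say whether the P14 controls carried a Cre, so an effect of the Cre transgene and of the deletion cannot be told apart there. The P0 and P14 experiments differ at once in age, tissue, Cre driver and the genotype of the controls.

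The thalamus and hypothalamus arise in the diencephalon and the rostral neural tube next to it, and each is set up by transcription factors that mark its territory before its nuclei form. Tcf7l2 and Lef1 encode HMG-box proteins of the TCF/LEF family, the DNA-binding partners of beta-catenin in Wnt signalling. Tcf7l2 marks postmitotic thalamic and habenular neurons, and Lef1 is also needed for the granule neurons of the hippocampal dentate gyrus. Gbx2 and Lhx9 are homeodomain proteins of developing thalamic neurons, and Rora is a nuclear receptor that is also made outside the thalamus. Six3 and Nkx2-1 pattern the ventral forebrain, hypothalamus included, and both are also used in the basal ganglia and their progenitors. Sim1 and Otp are needed for the neuroendocrine neurons of the paraventricular and supraoptic nuclei, and Trh encodes the precursor of thyrotropin-releasing hormone made there.

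Library totals lay between 11247150 and 16796797 counted reads at P0 and between 16830720 and 23340621 at P14. Levels are given as CPM, reads per 1000000 counted reads after TMM scaling (a factor per library set by the bulk of genes). Auts2 itself was counted over the whole gene, which does not isolate the transcripts that hold exon 7, so its level does not check the deletion. It lay between 136 and 181 CPM in the 6 P0 libraries and between 75.1 and 110 CPM in the 6 P14 libraries. Neurod6 and Emx1, genes of the dorsal forebrain, were present in every library, and the hippocampal genes Fibcd1 and Wfs1 exceeded 149 CPM in every P14 library. In such bulk tissue, fewer cells of a type and less RNA per cell cannot be told apart. The libraries are individual animals, and p-values come from edgeR's quasi-likelihood test with Benjamini-Hochberg adjustment over all genes tested, called under 0.05.

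Among the P0 controls, Tcf7l2 was the most abundant of the 10 genes per unit of exon length, at 19.8 ± 2.25 CPM per kb (SD, n = 3). Nkx2-1 and Six3 followed at 6.95 ± 1.13 and 5.93 ± 0.718 CPM per kb, and their ranges over the 3 libraries overlapped. Below them came Lhx9, Otp, Trh, Gbx2 and Rora, between 4.81 and 2.04 CPM per kb, each overlapping its neighbour. Lef1 and Sim1 were lowest, at 0.677 and 0.580 CPM per kb, with overlapping ranges. The steps free of overlap were those after Tcf7l2, after Six3 and after Rora. The P0 knockouts had the same 3 steps. Gbx2 and Lef1 share 946 and 1208 exonic bp with a gene on the opposite strand. The count used drops reads that fall on both genes, so the levels per kb of Gbx2 and Lef1 can be too low.

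The order was different in the P14 hippocampus. Rora and Lhx9 led among the P14 controls, at 3.119 ± 0.502 and 2.55 ± 0.295 CPM per kb (SD, n = 3), with overlapping ranges. Tcf7l2 followed at 1.34 ± 0.374 and Lef1 at 0.602 ± 0.0861 CPM per kb. Trh, Nkx2-1 and Six3 lay between 0.391 and 0.278 CPM per kb, and their ranges overlapped. Otp, Gbx2 and Sim1 had at most 2 reads in any control library. Among the P14 knockouts, Trh held rank 3 at 1.26 ± 0.245 CPM per kb and its range overlapped that of Six3, at 1.01 ± 0.559. Lef1 held rank 7 there, at 0.268 ± 0.0219 CPM per kb, apart from its neighbours on both sides.

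In CPM, the control mean of Tcf7l2 was 14.8-fold higher in P0 forebrain than in P14 hippocampus, that of Six3 21.3-fold, that of Nkx2-1 24.6-fold and that of Trh 9.17-fold. Lhx9 was 1.88-fold higher at P0 and Lef1 1.12-fold. Rora alone of the 10 had the higher control mean at P14, by 1.53-fold. Tissue and age changed together between these groups, and these ratios carry no test. The hypothalamic genes at P14 therefore rest on few reads, a sum over all 5 genes of 38, 57 and 63 reads in the control libraries.

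**Figure D1:**
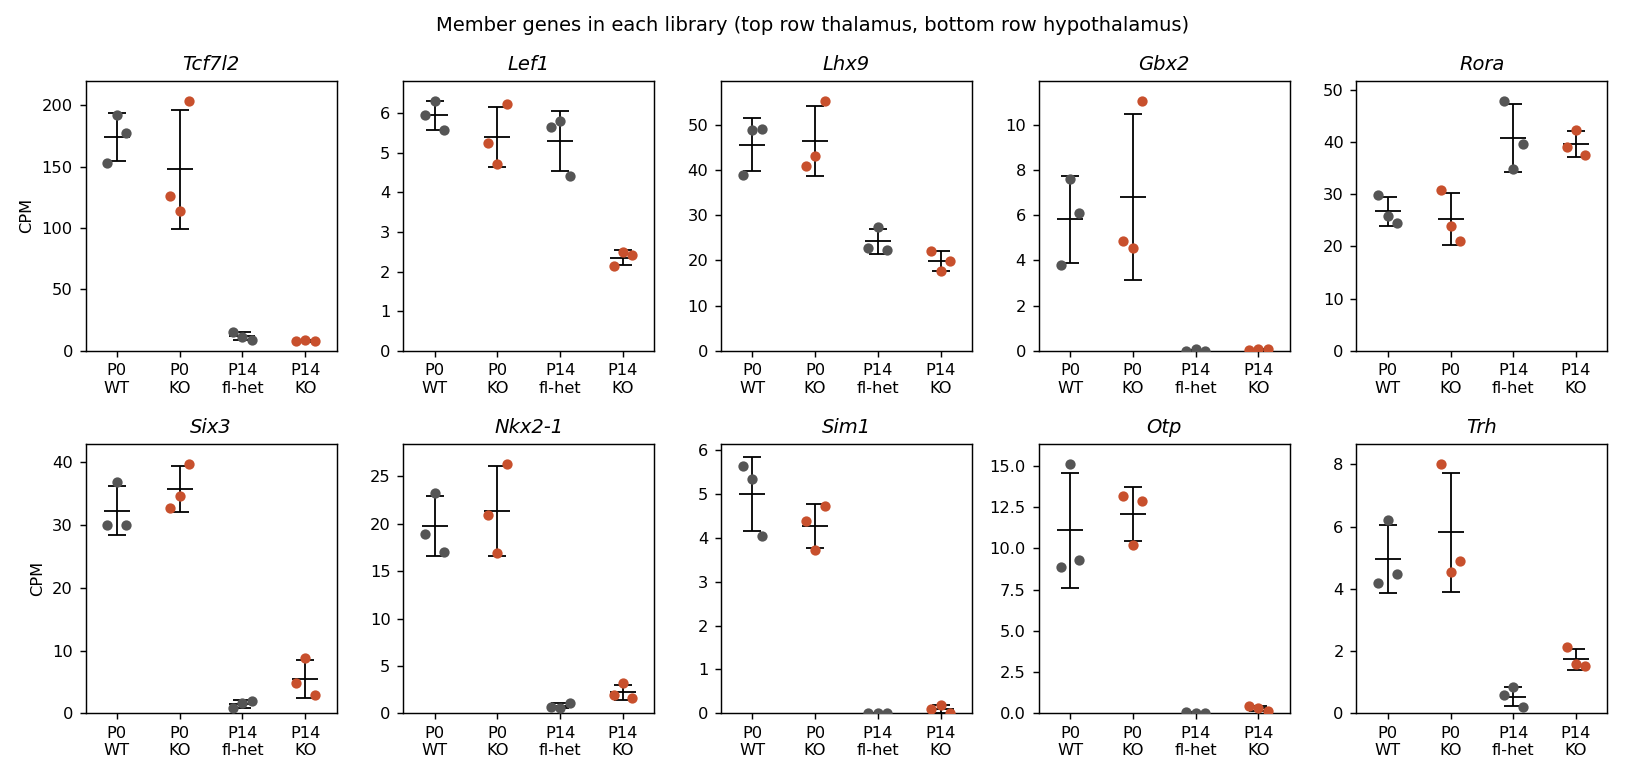
CPM of each of the 10 genes in every library (points), with the group mean and SD (bars, n = 3), for the P0 controls and knockouts and the P14 controls and knockouts. Lef1 at P14 lies between 4.42 and 5.80 CPM in the controls and between 2.14 and 2.51 CPM in the knockouts, while the P0 groups overlap for all 10 genes.

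At P0, with whole-body loss of Auts2 exon 7, none of these 10 thalamic and hypothalamic genes passed the test. The count was 0 of 10, where 0.909% of 16176 genes tested were called, 0.192% higher and 0.717% lower. DESeq2 called 0 as well, and gave no adjusted p for Sim1. None of the 10 had an unadjusted p under 0.05, against 16.1% of all genes. For 0 of the 10 genes were the 3 knockout libraries all on one side of the 3 controls, against 21.8% of all genes. A p that misses the threshold does not show that the levels were equal, and the SE of the log2 fold changes ran from 0.11 for Six3 to 0.38 for Gbx2.

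Tcf7l2 had 153, 192 and 177 CPM in the P0 control libraries and 126, 113 and 203 CPM in the knockouts. Knockout replicates 1 and 2 lay below every control and replicate 3 above every control. The log2 fold change over all 6 libraries was -0.24 (SE 0.24, adjusted p 0.691, edgeR). The titles number the animals: the controls are 353, 354 and 358, knockout replicate 3 is 356, and knockout replicates 1 and 2 are 373 and 375. The labels do not say what these numbers mean. Libraries are numbered too, and 2 knockouts and 2 controls fall in the series 1407 to 1410, while knockout replicate 3 and control replicate 3 are 1415 and 1416.

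Within library numbers 1407 to 1410, mean Tcf7l2 was 172 CPM in the controls and 120 CPM in the knockouts, a log2 ratio of -0.52. In libraries 1415 and 1416 it was 177 CPM in the control and 203 CPM in the knockout, a log2 ratio of 0.20 with no replicate. A fit to the first 4 libraries alone called Tcf7l2 lower, at -0.52 (adjusted p 0.00789, edgeR), 1 of 10 members where 12.9% of all genes were called. Leaving out only knockout replicate 3 gave -0.54 (adjusted p 0.00435, edgeR), again 1 of 10 members, where 4.69% of all genes were called. With all 6 libraries and the library number series as a term, Tcf7l2 was at -0.28 (adjusted p 0.452, edgeR) and 0 of 10 members were called, where 2.87% of all genes were. Whether Tcf7l2 was called at P0 thus depended on knockout replicate 3.

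The same library was the highest of all 6 at P0 for several other genes. Gbx2, which is needed for thalamic axons to reach the cortex, had 3.78, 7.60 and 6.08 CPM in controls and 4.85, 4.55 and 11.1 CPM in knockouts. Lhx9 had 38.8, 48.9 and 49.1 CPM against 41.0, 43.1 and 55.3 CPM. Nkx2-1 had 19.0, 23.3 and 17.0 CPM against 21.0, 16.9 and 26.3 CPM, and Six3 30.0, 36.8 and 30.0 CPM against 32.7, 34.7 and 39.8 CPM. For all 4 genes the highest value of the 6 belonged to knockout replicate 3, and the other knockouts lay among the controls, except that Nkx2-1 in knockout replicate 2 lay just under them. Summed over the 5 thalamic genes, the knockouts had 208, 190 and 297 CPM and the controls 231, 280 and 263 CPM. The hypothalamic sums were 79.3, 70.0 and 88.6 CPM in knockouts and 67.7, 86.8 and 64.9 CPM in controls.

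**Figure D2:**
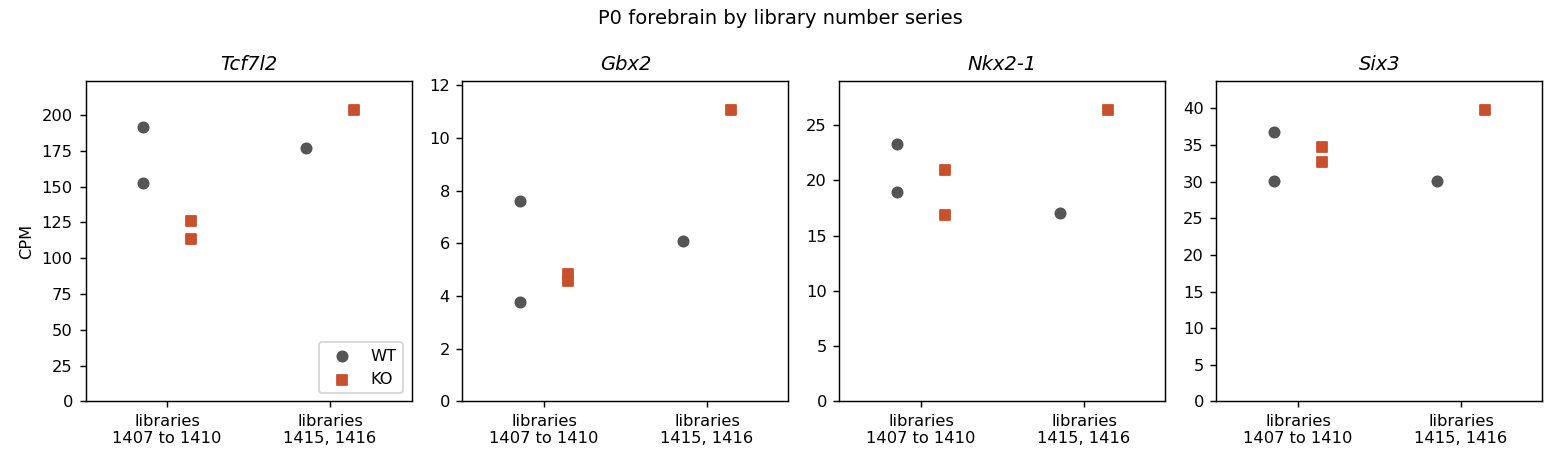
CPM of Tcf7l2, Gbx2, Nkx2-1 and Six3 at P0 (1 point per library), with libraries split by the library number in the labels (1407 to 1410, and 1415 with 1416), controls and knockouts side by side. For Tcf7l2 both knockouts of the first series (113 and 126 CPM) lie under both controls (153 and 192 CPM), and in the second series the knockout (203 CPM) lies above the control (177 CPM).

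The remaining genes had overlapping groups at P0 too. Lef1 had 5.96, 6.31 and 5.58 CPM in controls and 5.24, 4.72 and 6.22 CPM in knockouts. Rora had 29.9, 25.7 and 24.6 CPM against 30.7, 23.9 and 21.1 CPM. Sim1, Otp and Trh all lay between 3.73 and 15.1 CPM in the 6 libraries. Over all 10 genes, the log2 fold changes at P0 ran from -0.24 for Tcf7l2 to 0.24 for Gbx2, with adjusted p between 0.554 and 0.949 (edgeR).

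At P14 the picture was uneven. In the hippocampus of Nes-cre knockouts Lef1 was lower and Nkx2-1 and Trh were higher than in controls. These were 3 of the 7 genes that could be tested, 1 lower and 2 higher, where 1.99% of 17208 genes tested were called, 0.773% lower and 1.21% higher. Gbx2, Sim1 and Otp fell under the filter on low counts in every P14 library. Trh entered the test with 3 knockout and 2 control libraries over the filter's cutoff of 0.512 CPM, so its entry leaned on the group in which it was high. Tcf7l2, Lef1, Lhx9, Rora, Six3 and Nkx2-1 exceeded the cutoff in all 6 libraries.

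The 250 bases before a RefSeq start of these 3 genes are shown, since they are the members that were called. RefSeq lists 1 start for Nkx2-1, 1 for Trh and 4 for Lef1, of which the one farthest upstream was taken. They are read from the GRCm38.p6 build, 5′ to 3′ on the gene's strand, at chr3:131110047-131110296 (+) for Lef1, chr12:56536909-56537158 (-) for Nkx2-1 and chr6:92244651-92244900 (-) for Trh. Capitals mark matches, on either strand, to the motifs searched.
Lef1: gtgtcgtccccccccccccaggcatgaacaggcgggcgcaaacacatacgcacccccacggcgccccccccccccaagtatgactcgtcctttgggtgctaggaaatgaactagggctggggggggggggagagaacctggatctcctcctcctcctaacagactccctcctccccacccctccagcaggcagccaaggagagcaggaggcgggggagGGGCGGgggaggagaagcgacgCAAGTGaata
Nkx2-1: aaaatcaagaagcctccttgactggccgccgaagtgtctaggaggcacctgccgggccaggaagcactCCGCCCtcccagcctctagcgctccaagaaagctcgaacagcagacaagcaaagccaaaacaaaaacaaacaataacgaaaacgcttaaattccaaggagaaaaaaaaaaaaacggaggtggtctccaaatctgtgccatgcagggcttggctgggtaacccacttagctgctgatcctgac
Trh: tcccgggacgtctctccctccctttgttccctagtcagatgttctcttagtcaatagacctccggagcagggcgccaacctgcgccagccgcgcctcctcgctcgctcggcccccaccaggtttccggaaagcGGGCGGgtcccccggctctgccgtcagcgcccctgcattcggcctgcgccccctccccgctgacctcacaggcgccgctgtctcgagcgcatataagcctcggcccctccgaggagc
Searched were the TCF/LEF motif (letters CTTTGAT), the NKX2-1 motif (letters CAAGTG), the TATA motif (letters TATAAA), the CCAAT box (named by its letters) and the GC box (letters GGGCGG). No motif among these contains another. The window of Lef1 holds an NKX2-1 motif 10 bp before the start and a GC box 32 bp before it. The window of Nkx2-1 holds a GC box on the reverse strand 182 bp before the start, printed as CCGCCC, and that of Trh holds a GC box 117 bp before it. The TCF/LEF motif, the TATA motif and the CCAAT box have no match in these 3 windows. Of 32851 RefSeq promoter windows of this length, 32.7% hold a GC box, 11.6% an NKX2-1 motif, 3.21% a TCF/LEF motif, 12.4% a TATA motif and 33.8% a CCAAT box. These matches describe letters only. GC content was 66.4% for Lef1, 50.8% for Nkx2-1 and 68.8% for Trh.

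Lef1 (ENSMUSG00000027985, chromosome 3) had 98, 104 and 84 reads in the P14 controls and 43, 54 and 38 reads in the knockouts. In CPM these were 5.66, 5.80 and 4.42 against 2.14, 2.51 and 2.41. Every knockout lay under every control, and the group means were 5.29 ± 0.757 and 2.35 ± 0.193 CPM (SD, n = 3). Lef1 fell by 1.16 on the log2 scale (SE 0.20, adjusted p 0.00823, edgeR). Leaving out any of the 6 libraries gave log2 fold changes between -1.27 and -1.08, and Lef1 stayed called in 4 of these 6 fits. Without control replicate 2 the adjusted p was 0.0645 and without knockout replicate 1 it was 0.0613.

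Lef1 shares 1208 exonic bp with the antisense gene Gm43352, and STAR's unstranded gene count, the one used here, drops reads that fall on both. The sum of the 2 strand columns, which keeps those reads for each gene, gave Lef1 119, 127 and 133 reads in the P14 controls and 74, 90 and 72 in the knockouts. The groups stayed apart, with a log2 fold change of -0.75 (adjusted p 0.0358, edgeR). The libraries do not separate the strands, so reads of Lef1 and Gm43352 cannot be told apart in the shared stretch.

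Markers of dentate granule neurons were lower in the same P14 libraries. The list of 11 such genes was chosen with earlier results of these data known. Of the 11 genes, 6 were lower and 0 higher, with a median log2 fold change of -0.52 beside -0.0073 over all genes tested. Prox1, the homeodomain factor that specifies these neurons, fell from 172, 199 and 202 CPM to 116, 97.6 and 124 CPM (log2 fold change -0.76, adjusted p 0.00112, edgeR). The desmosome gene Dsp and the secreted synaptic protein gene C1ql2 fell by 0.93 and 0.89 on the log2 scale. Summed levels of the list were 629, 699 and 692 CPM in controls and 466, 456 and 482 CPM in knockouts. The part of this list in the Lef1 result was not tested.

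Tcf7l2 had 15.3, 11.2 and 8.79 CPM in the P14 controls and 7.65, 8.72 and 7.56 CPM in the knockouts. The lowest control lay just above the highest knockout. The log2 fold change was -0.54 (SE 0.18, adjusted p 0.146, edgeR), not called. Control replicate 1 was the highest library. Without it the log2 fold change was -0.32 (adjusted p 0.462, edgeR), and without control replicate 3 it was -0.71 (adjusted p 0.00576, edgeR). Shox2, a homeodomain gene of the thalamus and habenula, had 1.90 CPM in control replicate 1 and at most 0.279 CPM in the other 5 P14 libraries. Tnnt1 had 2.37 CPM there and at most 1.09 CPM elsewhere. Other genes of the same list were mixed in control replicate 1. Calb2 was highest of the P14 libraries there, at 92.6 CPM, while Cacna1g was lowest there, at 85.5 CPM. These genes were picked out after their values were seen, and their bearing on Tcf7l2 was not tested.

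Lhx9 and Rora were the thalamic genes best covered at P14, with 312 or more reads in every library. Lhx9 had 22.9, 27.4 and 22.4 CPM in controls and 22.1, 17.6 and 19.8 CPM in knockouts. Its groups were apart by a narrow margin, and the log2 fold change of -0.28 (SE 0.12, adjusted p 0.270, edgeR) was not called. Rora had 47.8, 34.9 and 39.6 CPM against 39.1, 42.2 and 37.5 CPM. The groups overlapped, with a log2 fold change of -0.028 (SE 0.10, adjusted p 0.939, edgeR). Gbx2 had a single read among the 3 controls and 4 among the 3 knockouts. Their ratio after scaling was 3.78, with an exact 95% interval from 0.374 to 186 that covers counting error only. Gbx2 shares 946 exonic bp with D130058E05Rik on the opposite strand, so the count used drops reads there, as for Lef1. The sum of the 2 strand columns gave Gbx2 4, 1 and 0 reads in the controls and 5, 3 and 2 in the knockouts. Summed over the 5 genes, the thalamic level was 91.6, 79.4 and 75.2 CPM in controls and 71.0, 71.2 and 67.3 CPM in knockouts.

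Nkx2-1 (ENSMUSG00000001496, chromosome 12) had 12, 11 and 21 reads in the P14 controls and 39, 68 and 26 reads in the knockouts. In CPM these were 0.693, 0.614 and 1.11 against 1.94, 3.16 and 1.65, so that all knockouts exceeded all controls. The means were 0.804 ± 0.264 and 2.25 ± 0.799 CPM (SD, n = 3). The log2 fold change was 1.49 (SE 0.35, adjusted p 0.0388, edgeR). A non-robust fit ended the call, at an adjusted p of 0.0579 (edgeR). It ran from 1.16 to 1.81 when each library was left out, and the call held in 1 of these 6 fits, that without control replicate 3. Without knockout replicate 2, the library with the most Nkx2-1 reads, the adjusted p was 0.220.

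Trh (ENSMUSG00000005892, chromosome 6) had 10, 15 and 4 reads in the controls and 43, 34 and 24 reads in the knockouts. In CPM the controls were at 0.577, 0.837 and 0.211 and the knockouts at 2.14, 1.58 and 1.52, again with no overlap. The log2 fold change was 1.71 (SE 0.40, adjusted p 0.0429, edgeR), and a non-robust fit ended the call at 0.0630. Leaving out each library gave 1.31 to 2.17, and Trh was called in 1 of these 6 fits, that without control replicate 3. Without knockout replicate 1 the adjusted p was 0.220. With at least 10 reads asked of every library, Trh was not tested.

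Six3 had 14, 31 and 38 reads in the P14 controls and 96, 190 and 45 reads in the knockouts. In CPM these were 0.808, 1.73 and 2.00 against 4.77, 8.82 and 2.86. The groups did not overlap and knockout replicate 2 was far above the other knockouts. The log2 fold change of 1.87 (SE 0.47) exceeded that of Nkx2-1 or Trh and was not called, at an adjusted p of 0.0997 (edgeR). Leaving out each library gave 1.35 to 2.16, and Six3 was called in 1 of these 6 fits. That was the fit without knockout replicate 3, the lowest of the knockouts, at 2.16 (adjusted p 0.0248, edgeR). Without knockout replicate 2 the log2 fold change was 1.35 (adjusted p 0.113, edgeR). DESeq2, a non-robust fit and a fit without the filter on low counts called Six3 as well, with adjusted p of 0.000137, 0.0421 and 9.7e-11.

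Sim1 and Otp, the factors of the neuroendocrine nuclei, were near the floor of detection. Otp had 2, 0 and 0 reads in the controls and 9, 7 and 2 reads in the knockouts. The ratio of the summed Otp reads after scaling was 8.50, with an exact 95% interval from 2.04 to 75.5 for counting error only. Sim1 had 0 reads in all 3 controls, which allows up to 0.0553 CPM over the group, and 2, 4 and 0 reads in the knockouts. No fold is given for Sim1. Summed over the 5 hypothalamic genes, the controls had 2.19, 3.18 and 3.32 CPM and the knockouts 9.39, 14.1 and 6.16 CPM.

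Counting the tested genes by direction, all 3 tested hypothalamic genes had the knockouts above the controls in every library, where 9.41% of all genes did. Of the 4 tested thalamic genes, Tcf7l2, Lef1 and Lhx9 had them below, where 10.6% of all genes did. For each of these 6 genes an exact two-sided permutation test on log2 CPM gave p = 0.1, the smallest that 3 against 3 allows. These counts leave out the 3 genes under the filter, and they include Trh, whose entry leaned on the knockouts, where it was high.

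**Figure D3:**
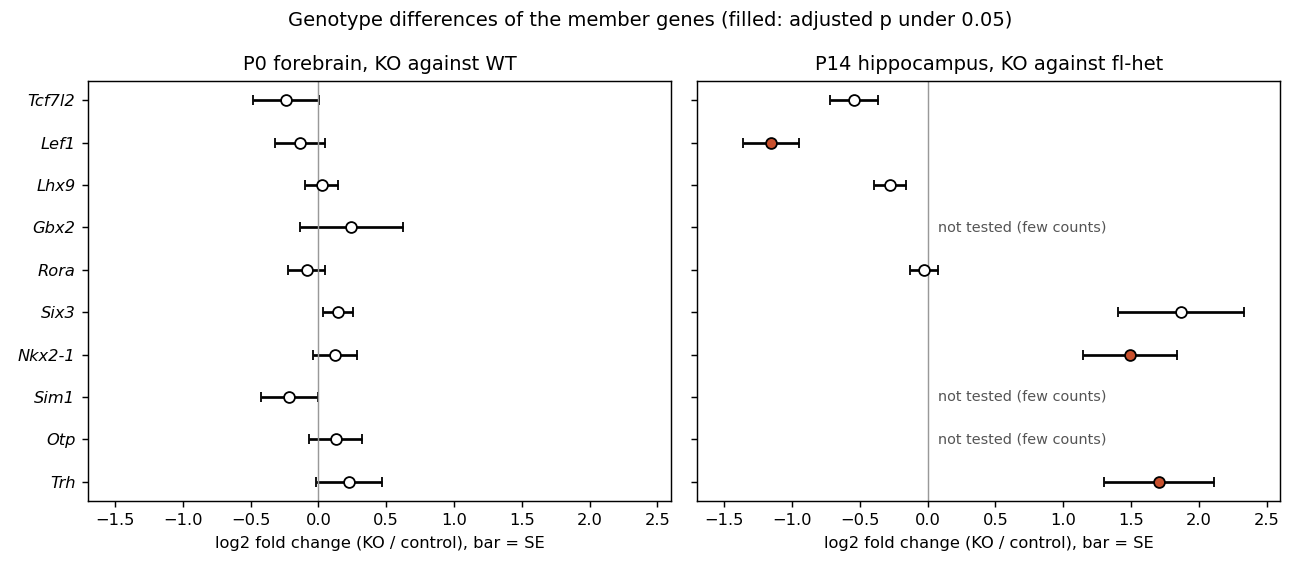
Log2 fold change of knockout over control for each of the 10 genes at P0 and P14 (points, bars give 1 SE, edgeR), with called genes filled. At P14 Lef1 is at -1.16 and Nkx2-1 and Trh at 1.49 and 1.71, while the P0 values lie between -0.24 and 0.24; Gbx2, Sim1 and Otp have no P14 value.

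Whether a gene responded differently in the 2 experiments was asked by fitting all 12 libraries together with an interaction term. Of the 10 genes, 0 were called, where 1.79% of 18189 genes were, although 6 of the 10 had an unadjusted p under 0.05, against 15.3% of all genes. These 6 include Sim1 and Otp, which were under the filter in every P14 library and entered this fit only through their P0 reads. DESeq2 called 2 of the 10, Lef1 and Nkx2-1. The difference of the log2 fold changes, P14 minus P0, was -1.04 for Lef1 (adjusted p 0.0532, edgeR) and 1.37 for Nkx2-1 (adjusted p 0.0652, edgeR). It was 1.46 for Trh and 1.72 for Six3, with adjusted p of 0.123 and 0.157 (edgeR). With the sum of the 2 strand columns, which keeps the reads shared with Gm43352, it was -0.52 for Lef1 (adjusted p 0.249, edgeR). On that sum Nkx2-1 was called, at 1.41 (adjusted p 0.0450, edgeR). Lef1, Nkx2-1 and Trh were thus called at P14 and not at P0. The difference between the experiments did not pass the test in edgeR on the unstranded count.

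Further genes of the same regions were taken from lists. Like the other lists here, they were chosen with earlier results of these data known. Among 21 thalamic and habenular genes, 19 were tested at P0, with 1 higher, 2 lower and a median log2 fold change of -0.24 beside -0.00034 over all genes. The cortical and thalamic factor Lhx2 rose from 89.3, 79.4 and 93.2 CPM to 112, 120 and 122 CPM (log2 fold change 0.42, adjusted p 0.0368, edgeR). The kinase gene Prkcd fell from 26.0, 25.6 and 25.9 CPM to 18.3, 18.8 and 18.5 CPM (-0.48, adjusted p 0.0416, edgeR). Nwd2 fell by 0.39 on the log2 scale (adjusted p 0.0483, edgeR). Lhx2 was called in 2 of the 6 fits that left out a library, those without control replicate 3 and without knockout replicate 3, and Prkcd and Nwd2 in 1, the latter of those.

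At P14, 19 of the same 21 genes were tested, with 2 higher, 1 lower and a median of -0.084. Foxp2, a forkhead factor of thalamic and striatal neurons, rose from 1.90, 1.84 and 1.11 CPM to 7.50, 8.68 and 6.99 CPM (log2 fold change 2.27, adjusted p 0.000105, edgeR). Ramp3, a receptor-modifying membrane protein, rose by 0.86 on the log2 scale (adjusted p 0.0400, edgeR). The calcium-binding protein gene Calb2 fell by 0.44 on the log2 scale (adjusted p 0.00927, edgeR). Foxp2 stayed called whichever library was left out, Ramp3 in 2 and Calb2 in 3 of the 6 fits. Summed levels of the list overlapped between the groups, at 487 to 538 CPM in controls and 515 to 532 CPM in knockouts.

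Of 25 further hypothalamic genes, 20 were tested at P0 and 0 were called, with a median of -0.064. At P14 only 9 of the 25 passed the filter, with 2 higher and 0 lower. Avp, Isl1 and Vax1 among them passed it only through the knockouts, so the tested set leaned towards genes higher in knockouts. Avp, the vasopressin precursor, had 0.231, 0.0558 and 0.421 CPM in controls and 2.19, 1.16 and 1.78 CPM in knockouts (log2 fold change 2.81, SE 0.49, adjusted p 0.00758, edgeR). All 3 controls lay under the filter's cutoff, so Avp entered the test only through the knockouts, where it was high. It stayed called in 5 of the 6 fits that left out a library, with an adjusted p of 0.0613 without knockout replicate 1. Arnt2, the partner protein of SIM1, rose by 0.36 on the log2 scale (adjusted p 0.0133, edgeR), from 251, 257 and 269 CPM to 339, 322 and 325 CPM. Arnt2 was called in 2 of the 6 such fits.

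Not every hypothalamic gene lay higher in the P14 knockouts. The neuropeptide gene Gal had 2.25, 2.18 and 2.00 CPM in controls and 1.09, 1.11 and 0.699 CPM in knockouts (log2 fold change -1.11, adjusted p 0.0663, edgeR), not called. Vax1, a homeodomain gene of the ventral forebrain, was at 1.83 (adjusted p 0.0688, edgeR), with the 3 knockouts above the 3 controls. Vax1, like Avp, passed the filter only through the knockouts. Gal and Vax1 were picked after their values were seen. Of the 25 genes, 6 had no read in any control and 2 had none in any knockout. The summed level of the list was 266 to 282 CPM in controls and 339 to 356 CPM in knockouts, most of it from Arnt2.

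Genes of other cell types that lie near the hippocampus were read in the same libraries. Striatal projection neuron genes summed to 165, 203 and 192 CPM in the P14 controls and 238, 319 and 212 CPM in the knockouts. Knockout replicate 2 was highest and replicate 3 lowest of the knockouts, as for Six3, Nkx2-1 and the few reads of Sim1. Trh and Otp did not have this order and were highest in knockout replicate 1. Of 12 tested, 10 lay above 0, with a median log2 fold change of 0.44, and only Drd1 was called. This dopamine receptor gene rose from 2.54, 3.18 and 2.58 CPM to 5.46, 9.75 and 7.43 CPM (log2 fold change 1.46, adjusted p 0.00341, edgeR). Among the knockouts, Drd1 was lowest in replicate 1. Choroid plexus genes summed to 162, 995 and 2602 CPM in controls and 1536, 2071 and 1396 CPM in knockouts, with 0 of 10 called, a median of 0.32 and no list gene at 0 throughout a group. The part of the striatal and choroid plexus genes in the hypothalamic results was not tested.

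The other lists of cell types had few calls at P14. Endothelial genes had 0 of 12 called and a median of -0.21, and oligodendrocyte genes 0 of 11 and -0.36. Genes of ganglionic eminence and interneurons had 1 of 10 called, Gad1 at -0.35 (adjusted p 0.0284, edgeR), with a median of 0.15. Cortical layer 4 genes had 0 of 6 and 0.20, and forebrain and hippocampal tissue genes 1 of 10, Bok at -0.44 (adjusted p 0.0170, edgeR), and -0.054. At P0 the same lists had 0 of 10 for choroid plexus, with a median of 0.15, and 0 of 11 for dentate granule, with -0.11. Oligodendrocyte genes had 0 of 8 and -0.36, interneuron genes 0 of 12 and 0.016, layer 4 genes 0 of 6 and -0.40 and tissue genes 0 of 10 and 0.084. Endothelial genes had 1 of 12, Slc2a1 at 0.58 (adjusted p 0.0267, edgeR), and 0.016, and striatal genes 1 of 12, Tac1 at -0.73 (adjusted p 0.0197, edgeR), and -0.17.

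**Figure D4:**
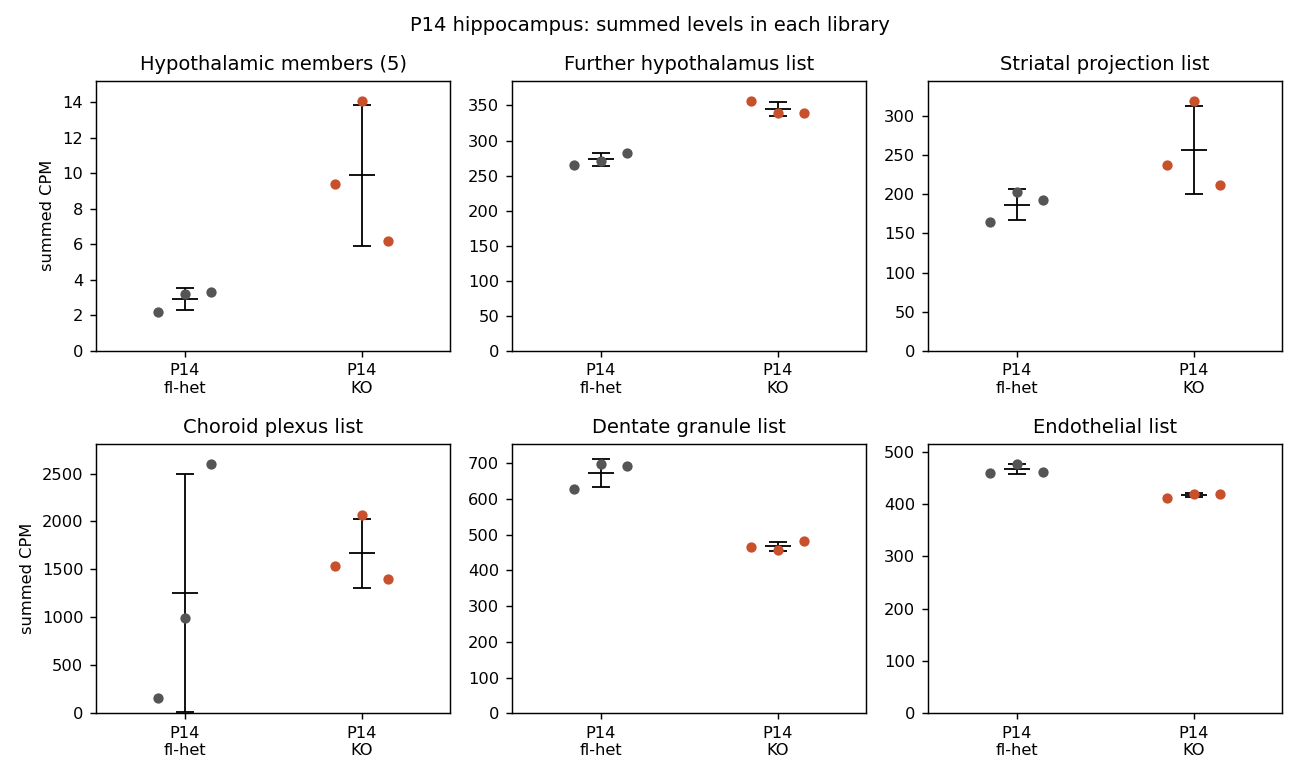
Summed CPM per P14 library (points) with group mean and SD (n = 3) for the 5 hypothalamic members, the further hypothalamic genes and 4 lists of other cell types. The hypothalamic sum runs from 2.19 to 3.32 CPM in controls and from 6.16 to 14.1 CPM in knockouts, and the dentate granule sum from 629 to 699 and from 456 to 482 CPM.

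Tcf7l2 and Lef1 act through beta-catenin, and the genes of that pathway were read beside them. Of 11 partners, 0 were called at P0 (median 0.099) and 1 at P14 (median 0.098). That gene was Tle3, a Groucho-family corepressor of TCF/LEF proteins, which rose from 53.1, 50.8 and 52.2 CPM to 82.2, 78.8 and 73.2 CPM at P14 (log2 fold change 0.60, adjusted p 0.000733, edgeR). At P0 its value was 0.40, with an adjusted p of 0.0516 (edgeR) and every knockout above every control. Ctnnb1, which encodes beta-catenin, lay between 514 and 666 CPM in the 12 libraries and was not called in either experiment. Of 11 feedback targets of the pathway, 0 were called at P0 and 0 at P14, with medians of -0.023 and 0.0014. Axin2, the usual readout among them, lay between 19.8 and 26.0 CPM in all libraries.

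Genes that make, sense or degrade the TRH peptide were also few in calls. At P0, 6 of 8 were tested, 0 were called and all 6 lay below 0, with a median of -0.32. At P14, 1 of 7 was called, with a median of -0.25. Trhde, the ectoenzyme that degrades the peptide, fell from 66.4, 55.0 and 65.9 CPM to 43.9, 44.1 and 48.5 CPM (log2 fold change -0.45, adjusted p 0.0161, edgeR). It was called in 3 of the 6 fits that left out a library. The processing enzyme genes Pcsk1 and Cpe were not called in either experiment.

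For the 2 best expressed genes of each region, the genes with the most similar profile were sought among 15636 others, by Pearson r of log2 CPM over 12 libraries after centring within each experiment. Tcf7l2 was most like Ehd1, Klhl33 and Zfat (r = 0.93 each), and Lhx9 most like Nt5dc2 (0.95), Aga (0.90) and Xlr3a (0.90). Six3 was most like Sun1, G630016G05Rik and Sema3f (r = 0.95 each). For these 3 the likeness lay in the 6 P14 libraries (r from 0.96 to 0.99), while r over the 6 P0 libraries was 0.71, 0.036 and 0.44. Nkx2-1 was most like Frmpd3 (0.96), Lingo1 (0.95) and G630018N14Rik (0.94). These r are the highest of many, share the 12 libraries and their composition, and are descriptions only.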

How the data were processed

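RNA was purified with Trizol and DNase I from 12 individual mice, and TruSeq libraries were read as 150 bp pairs on a HiSeq 4000, per the labels' protocols. The deposited tables give, for every Ensembl gene, raw counts that the authors made. The submitters' processing notes name STAR 2.7.5a, edgeR 3.12 and the GRCm38 build. Annotation release 102 is given by the file names, and trimming is not given in the sources used here. Beside the unstranded count, every table has 2 strand columns. The smaller of them held 49.9% or more of the strand reads in every library, so the unstranded count was used. GENCODE vM21, on the same build, gave symbols and coordinates, and 55141 of 55487 identifiers had a symbol. Promoter sequences came from RefSeq on GRCm38.p6, which had an entry for 10 of 10 members.

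Each experiment was tested on its 6 libraries with edgeR 4.0.16 (R 4.3.3) by filterByExpr, TMM scaling, glmQLFit (robust) and then glmQLFTest, and p-values were adjusted by Benjamini-Hochberg over all genes tested. The SE was derived from the fitted log2 fold change and its F statistic. The interaction was fitted to all 12 libraries at once. Profiles were compared as log2 CPM with 2 as prior count. Variation between replicates, as the common coefficient, came to 0.104 in the P0 fit and 0.0998 in the P14 fit. The script was tested on simulated data. Groups follow the labels, and replicate numbers follow accession order. Replicate pairs differed by more than sampling noise (chi-square per degree of freedom from 2.93 to 17.5 over 12 pairs), so each library counted as 1 sample. The reads carry no molecular identifiers, so counting intervals cover counting error only.

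The members and gene lists were chosen with earlier results of these data known. All 10 members were named. Of each other list, the genes called over all genes tested and the 4 with the highest mean CPM could be named, and for the 2 best expressed members of each region the 3 genes with the most similar profile. Alternatives were RLE and upper-quartile scaling, DESeq2 1.42.0, a non-robust fit, a filter of 10 counts or more in all libraries, no filter, 1 fit on all 12 libraries, the library number series as a term or alone, and leaving out each library. Not every called list gene is reported here. The sum of the 2 strand columns was added after seeing the data.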

Additional observations from a re-analysis of the deposited data

Results flagged for a closer look

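Of the 10 members, 0 were called by edgeR's interaction test between the P0 and P14 experiments, while 10 genes of the other lists were. DESeq2 called 2 of the members. In edgeR 6 members had an unadjusted p under 0.05, among them Sim1 and Otp, which were under the filter at P14. The difference of the log2 fold changes, P14 minus P0, was 2.49 for Foxp2 (adjusted p 1.63e-07), which lay lower in every P0 knockout and higher in every P14 knockout than in the controls. It was 2.83 for Avp (adjusted p 0.00682), 1.61 for Drd1 (adjusted p 0.00601) and 1.13 for Ramp3 (adjusted p 0.0341). It was -0.69 for Prox1 (adjusted p 0.00775), -0.53 for Lhx2 (adjusted p 0.0307) and -0.55 for Bok (adjusted p 0.0493). Also called were the striatal gene Rgs9 (0.99, adjusted p 0.0287) and the interneuron gene Gbx1 (3.83, adjusted p 0.0179). Rgs9 was called within neither experiment, and Gbx1 was not tested at P14, where its highest library had 0.464 CPM. Foxp2, Avp, Drd1 and Prox1 were called in every alternative in which they were tested. Bok was called in 6 of 19 alternatives, Ramp3 in 11 of 19 and Lhx2 in 12 of 19. The experiments differ in tissue, age, Cre line and control genotype, which cannot be told apart here.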

How the results depend on the processing

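No paired analysis was possible because the replicate numbers follow accession order and match no libraries across groups; the library number series at P0 is a separate term. The count of members called at P0 was 0 under every alternative except the 4 libraries numbered 1407 to 1410 alone, where it was 1, and leaving out each library, where it ran from 0 to 1; the gene was Tcf7l2 both times. In the 4 libraries the log2 fold changes of Lhx9 (-0.061), Gbx2 (-0.28), Nkx2-1 (-0.16) and Otp (-0.039) changed sign. When each library was left out, those at P0 ran from -0.12 to 0.11 for Lhx9, -0.32 to 0.46 for Gbx2, -0.25 to 0.035 for Rora, -0.058 to 0.27 for Nkx2-1, -0.0020 to 0.41 for Otp and -0.063 to 0.41 for Trh. Rora ran from -0.13 to 0.096 at P14 and from -0.079 to 0.21 in the interaction. The count at P14 was 3, against 5 without the filter on low counts (Tcf7l2 and Six3 added), 4 with DESeq2 (Six3 added), 2 in the non-robust fit (Lef1 and Six3) and 2 with at least 10 counts (Lef1 and Nkx2-1), and it ran from 0 to 4 when each library was left out. It was 0 without control replicate 2 or knockout replicate 1 and 1, Lef1, without control replicate 1 or knockout replicate 2. The interaction count was 0, against 2 with DESeq2, 4 without the filter and 1 each with at least 10 counts, the non-robust fit and the strand sum, and ran from 0 to 2 when each library was left out. Over all genes, calls at P0 rose from 147 to 382 with DESeq2, 625 without the filter, 284 in 1 fit on all libraries, 465 with the series term and 2107 in the 4 libraries alone, and were 50 in the non-robust fit and 84 with the strand sum. At P14, 342 became 534 with DESeq2 and 814 without the filter, and in the interaction 326 became 531 and 646. When each library was left out, calls ran from 1 to 775 at P0, 104 to 1808 at P14 and 125 to 905 in the interaction. The cause was not tested. Depth limits the hypothalamic genes at P14, with 97 or more summed reads in a knockout and 63 or fewer in a control.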

Other observations

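Pomc, the precursor of melanocyte-stimulating hormone and of pituitary corticotropin, had 20.4 CPM in P0 control replicate 3 and between 0.755 and 1.86 CPM in the other 5 P0 libraries. Oxt, the oxytocin precursor, had 1.26, 1.54 and 0.553 CPM in the P0 controls and 0.397, 0.497 and 0.544 CPM in the knockouts. All knockouts lay below all controls, by a margin of 0.544 against 0.553 CPM. Of all genes tested at P0, 11.1% had the knockouts below the controls in this way. At P14 Oxt had reads in 2 of 3 knockouts and 1 of 3 controls. Oxt passed the filter on low counts at neither age, and the P0 difference has no test. Both genes were picked out after their values were seen.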
